A study of Mus musculus with 6 samples.

Results

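The vascular endothelial growth factor (VEGF) ligands, their receptors and co-receptors, and endoglin were followed in AB22, a line of mouse cells from a malignant mesothelioma. The genes were chosen by name as Vegfa, Vegfb, Vegfc, Vegfd, Pgf, Flt1, Kdr, Eng, Nrp1 and Nrp2. Rows for 9 of the 10 stand among the 12134 gene symbols of the deposited table, and Pgf was not analysed here. The choice was made with the values of these libraries and the contrast between the hairpins already known, so the differences of these 9 genes are given as a description, with standard errors and 95% intervals and no p-value. All 9 passed the filter for the fit over all genes, which asked for 0.5 RPKM or more as the mean of all libraries.

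RNA was sequenced from cells carrying a doxycycline-inducible lentiviral hairpin against Hmgb1 (shHMGB1) and from cells carrying a control hairpin (shCTRL), with 3 libraries in each group, replicates A, B and C. HMGB1 is a DNA-bending nuclear protein that is plentiful in most cells. Both groups received pTRIPZ virus (multiplicity of infection 20), puromycin (4 µg/mL) for selection and doxycycline (1 µM) for 7 to 10 days under 5% oxygen, and RNA came from cells synchronized in G1. No radiation dose is listed for the RNA libraries. The labels do not say whether replicates were separate infections or clones, so errors measure the spread between the cultures sequenced.

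VEGF ligands are secreted dimers that drive the growth and permeability of blood and lymphatic vessels. VEGFA signals mainly through the tyrosine kinase receptor encoded by Kdr (VEGFR2), while the receptor encoded by Flt1 (VEGFR1) binds VEGFA, VEGFB and placental growth factor and can act as a decoy. VEGFC and VEGFD are best known as lymphatic ligands, neuropilins present VEGF and semaphorins to the signalling receptors, and endoglin is a co-receptor for TGF-beta and BMP ligands that is abundant on growing endothelium. Mesothelioma cells are known to secrete VEGF.

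Values are RPKM, reads per kilobase of gene length scaled to the library size, which can be set side by side between genes because they are per length. The listed genes held 12867332 to 23425330 reads in each library, recovered from the steps between the deposited values. Hmgb1 measured 7.18, 5.79 and 3.80 RPKM in shHMGB1 replicates A, B and C, against 33.4, 45.5 and 31.9 RPKM in shCTRL replicates A, B and C, so 15.1% of the control mean was left. Its log2 fold change was -2.73 ± 0.26 (limma SE, adjusted p = 0.0269 over all genes). Of 11669 genes tested with limma and Benjamini-Hochberg adjustment, 3 passed 0.05, all lower in shHMGB1. Of all tested genes 923, or 7.91%, had an unadjusted p under 0.05. The share called after adjustment was 0.0257%, and 0 of the 9 VEGF genes were among them, a count from which nothing is read because the genes were named with this contrast known. The 3 calls became 8 without shHMGB1 replicate A and 0 without shHMGB1 replicate B, shCTRL replicate B or shCTRL replicate C. The members were not called in any of the 19 alternative settings either, where all 9 were tested in 18 settings and 6 of them above a floor of 5 RPKM. The median log2 fold change was -0.01 over the 9 genes and 0.01 over all tested genes.

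The cells were checked against marker lists. Of 16 mesothelial markers 6 were listed, and their summed level ran from 436.1 to 544.7 RPKM in shHMGB1 and from 552.0 to 634.7 RPKM in shCTRL. Msln, which encodes mesothelin, measured 39.1, 31.7 and 27.9 RPKM in shHMGB1 and 60.9, 57.8 and 82.8 RPKM in shCTRL, and Wt1, Upk3b, Krt19 and Calb2 were not analysed here. Of the 5 mesothelial markers tested 4 had log2 fold changes below 0 and 1 above, and 0 were called. Msln, Gas1 and Bnc1, 3 of the 5, were lower without overlap, where 7.07% of all tested genes were. Gas1 measured 25.0, 29.1 and 38.6 RPKM in shHMGB1 and 39.7, 47.4 and 56.2 RPKM in shCTRL. Bnc1 measured 2.72, 2.64 and 1.98 RPKM in shHMGB1 and 3.52, 4.16 and 4.26 RPKM in shCTRL. Efemp1 made up most of the sum and overlapped, at 357 to 472 RPKM in shHMGB1 and 439 to 519 RPKM in shCTRL, and Cdh3 ran the other way, at 5.30, 11.4 and 10.3 RPKM in shHMGB1 and 8.33, 5.63 and 8.66 RPKM in shCTRL. The part of these markers in the results on Eng and the other members was not tested. Of 20 endothelial markers only Cd34 and Ecscr had values, and Pecam1, Cdh5, Tek, Emcn and Vwf were not analysed here. Of 6 lymphatic endothelial markers only Prox1 had values, at 6.26 to 8.72 RPKM in shHMGB1 and 7.70 to 9.40 RPKM in shCTRL. Of 12 macrophage markers Lyz2 and Cd14 had values, with sums of 6.99 to 10.3 RPKM in shHMGB1 and 8.12 to 10.1 RPKM in shCTRL. Of 10 pericyte and fibroblast markers 5 had values, with sums of 1079 to 2399 RPKM in shHMGB1 and 893.8 to 1566 RPKM in shCTRL.

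The 9 genes fell into 4 ranges of level that did not overlap. Vegfa stood alone at the top with a mean of 111 RPKM over the 6 libraries, rank 514 of 12134 listed genes, and its lowest library at 90.4 RPKM lay above the highest Nrp1 library at 44.2 RPKM. Nrp1 was next at 40.9 RPKM, rank 1540, and stood clear of all others in each library. Vegfd at 14.6, Vegfc at 11.7, Nrp2 at 11.3 and Vegfb at 9.83 RPKM formed a middle range in which each gene overlapped its neighbour. Kdr at 1.80, Flt1 at 1.77 and Eng at 0.992 RPKM formed the lowest range, again with overlap between neighbours, and the lowest Vegfb library at 4.41 RPKM was above the highest Kdr library at 3.60 RPKM. Vegfa was thus far above the kinase receptors Flt1 and Kdr in every library. The other ligands were above them too, though the lowest Vegfb library was only narrowly so. The most abundant receptor-side transcript was a neuropilin. The place of Nrp1 depends on gene length, because its value rests on 3597 bases where 9785 exonic bases are annotated. With annotated exonic bases for every gene, an alternative chosen after seeing the data, Nrp1 averaged 15.0 RPKM and overlapped Vegfd at 12.4 RPKM and Vegfc at 11.7 RPKM, while Vegfa remained clear at 91.5 RPKM and Flt1 at 1.44 RPKM came before Kdr at 1.18 RPKM.

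**Figure D1:**
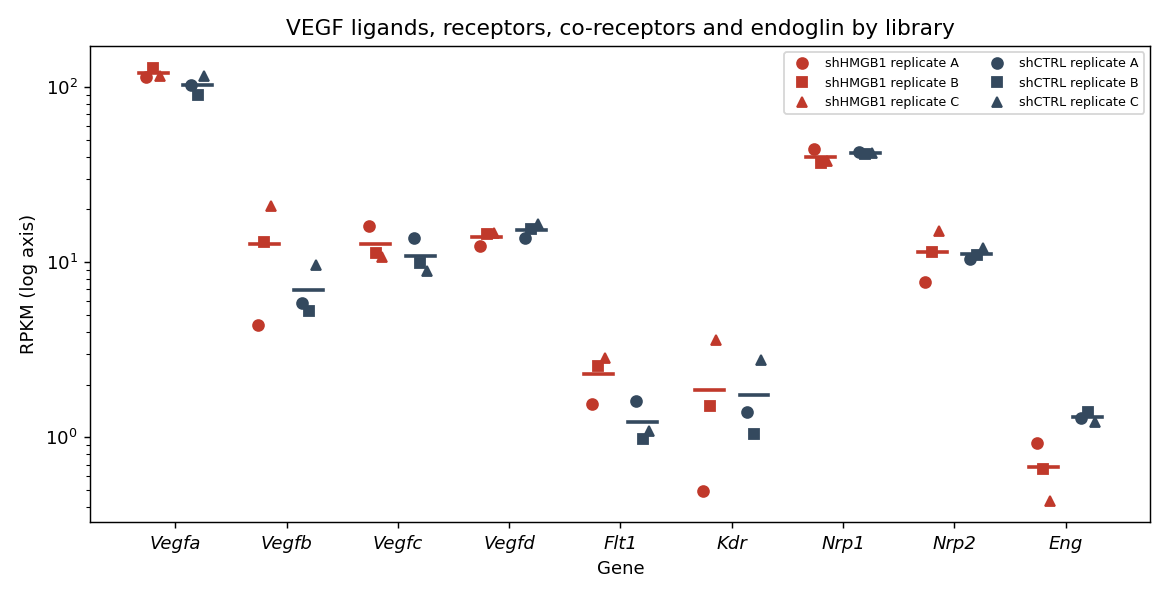
RPKM on a log axis for each of the 9 genes, with shHMGB1 libraries in red to the left and shCTRL libraries in dark blue to the right, a symbol per replicate and a line at each group mean. Vegfa lies between 90.4 and 128.9 RPKM in every library, and for Eng every shHMGB1 library lies below every shCTRL library.

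The stretches just upstream of 4 of these genes are shown because they span the observed extremes of level: the most abundant ligand, the kinase receptors Flt1 and Kdr, and endoglin. They are the 250 bases before the RefSeq start, 5′ to 3′ on the gene's strand, on GRCm38.p6. Vegfa is at chr17:46032378-46032627 and Flt1 at chr5:147726012-147726261, both on the minus strand, Kdr is at chr5:75978456-75978705 on the minus strand, and Eng is at chr2:32646345-32646594 on the plus strand. Capitals mark matches on either strand to GGGCGG (the SP1 GC box), CCGGAA (an ETS motif), TATAAA (the TATA box), ACGTG (a form of the core of the hypoxia response element) or TGACTCA (an AP-1 motif).
Vegfa: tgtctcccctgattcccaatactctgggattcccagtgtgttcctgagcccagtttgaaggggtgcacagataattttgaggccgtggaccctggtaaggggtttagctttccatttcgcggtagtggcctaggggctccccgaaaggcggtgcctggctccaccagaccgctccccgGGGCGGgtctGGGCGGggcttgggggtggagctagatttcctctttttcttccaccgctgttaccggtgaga
Flt1: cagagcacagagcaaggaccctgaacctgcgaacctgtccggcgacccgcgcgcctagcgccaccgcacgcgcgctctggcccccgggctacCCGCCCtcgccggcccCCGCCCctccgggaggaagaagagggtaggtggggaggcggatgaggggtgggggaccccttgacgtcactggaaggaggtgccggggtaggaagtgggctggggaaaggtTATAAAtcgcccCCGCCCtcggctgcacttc
Kdr: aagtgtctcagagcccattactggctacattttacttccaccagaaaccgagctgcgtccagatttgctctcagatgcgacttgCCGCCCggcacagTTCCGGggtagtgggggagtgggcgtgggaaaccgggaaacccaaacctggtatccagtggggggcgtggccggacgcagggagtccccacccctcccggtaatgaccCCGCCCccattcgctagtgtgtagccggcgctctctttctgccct
Eng: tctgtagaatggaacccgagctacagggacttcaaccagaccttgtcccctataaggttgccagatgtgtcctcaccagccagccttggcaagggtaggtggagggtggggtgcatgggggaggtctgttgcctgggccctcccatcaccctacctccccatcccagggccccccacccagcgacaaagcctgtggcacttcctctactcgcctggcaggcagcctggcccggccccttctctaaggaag
The Vegfa stretch holds 2 GC boxes, at bases -72 to -67 and -62 to -57 counted back from the start, and the Flt1 stretch holds 3 GC boxes with a TATA box at -31 to -26. The Kdr stretch holds 2 GC boxes and 1 ETS motif, at -153 to -148, and the Eng stretch holds none of the 5 motifs. All 10 named genes, Pgf included, had a promoter in the table. A GC box was present in 8 of the 10, where 32.7% of the 32851 promoters hold it, and absent from Eng and Vegfd. A TATA box was present in 2 of 10, Flt1 and Vegfd (12.4% of all promoters), and an ETS motif in 1 of 10 (12.03%). The ACGTG form of the hypoxia core and the AP-1 motif were found in 0 of 10, where 16.6% and 4.46% of promoters hold them. The GCGTG form of the hypoxia core was not searched for, and it stands unmarked, on either strand, in the Kdr and Flt1 stretches shown. In the Vegfb and Nrp2 stretches adjoining or overlapping GC boxes were counted separately. GC content was 62.4% with 4 CpG in Eng and 42.4% with 2 CpG in Vegfd, against 59.2% to 76.4% with 11 to 32 CpG in the other 8, and the medians of all promoters were 52.4% and 6 CpG. RefSeq starts differ from the GENCODE gene starts given below for some genes. The Nrp1 window lies inside the GENCODE gene, and those of Vegfd, Nrp2 and, by a few bases, Kdr run past its start. These matches describe letters in a short window and are no measure of binding.

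Vegfa, the main angiogenic ligand, on chromosome 17 from 46016993 to 46032369, measured 113, 128.9 and 116 RPKM in shHMGB1 replicates A, B and C and 103, 90.4 and 116 RPKM in shCTRL replicates A, B and C. The groups overlapped, because shCTRL replicate C reached the level of shHMGB1 replicates A and C. The means were 119 ± 8.30 RPKM in shHMGB1 and 103 ± 12.8 RPKM in shCTRL (SD, n = 3 each), and the difference on the log2 scale was 0.22 ± 0.16 (SE; 95% interval -0.16 to 0.59). Reads numbered 7806, 10035 and 6083 in shHMGB1 and 4971, 3462 and 10443 in shCTRL, so counting error is small beside the spread between cultures. With 1 library left out the fold change ran from 0.13, without shCTRL replicate B, to 0.30, without shCTRL replicate C. Values are per gene, so the splice forms of Vegfa, which differ in how they bind heparan sulphate, and the soluble form of Flt1 were not separated.

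Both lymphatic ligands overlapped between the groups. Vegfc, on chromosome 8 from 54077606 to 54187096, measured 16.0, 11.3 and 10.7 RPKM in shHMGB1 and 13.7, 9.85 and 8.86 RPKM in shCTRL, with replicate A highest in both groups and overlapping ranges. Its log2 fold change was 0.23 ± 0.23 (SE; 95% interval -0.30 to 0.76), and ran from 0.05 to 0.41 with 1 library left out, the extremes being without shHMGB1 replicate A and without shCTRL replicate A. Vegfd, on chromosome X from 164373378 to 164402650, measured 12.4, 14.5 and 14.8 RPKM in shHMGB1 and 13.7, 15.4 and 16.6 RPKM in shCTRL, again with overlap. Its log2 fold change was -0.13 ± 0.15 (SE; 95% interval -0.49 to 0.22).

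Vegfb, a ligand of the Flt1 receptor, on chromosome 19 from 6982473 to 6987651, was the ligand that differed most between cultures of the same hairpin. It measured 4.41, 13.0 and 20.9 RPKM in shHMGB1 and 5.82, 5.25 and 9.63 RPKM in shCTRL. The shHMGB1 libraries lay on both sides of the shCTRL ones, with replicate A the lowest of all 6 libraries and replicate C the highest. The highest shHMGB1 library was 4.74 times the lowest, a ratio larger than in or equal to that of 97.8% of tested genes, whose median was 1.45. The log2 fold change of 0.67 ± 0.53 (SE; 95% interval -0.56 to 1.89) became 1.29 without shHMGB1 replicate A and 0.18 without shHMGB1 replicate C.

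As shares of the summed ligand RPKM in a library, Vegfa made up 77.6%, 76.9% and 71.5% in shHMGB1 and 75.6%, 74.8% and 76.8% in shCTRL. Vegfb made up 3.01%, 7.74% and 12.9% in shHMGB1 and 4.28%, 4.34% and 6.38% in shCTRL. Vegfc made up 6.59% to 10.95% in shHMGB1 and 5.86% to 10.0% in shCTRL. Vegfd made up 8.46% to 9.09% in shHMGB1 and 10.1% to 12.7% in shCTRL, and its share was the only ligand share whose groups did not overlap. Its RPKM did overlap, and nothing is read from the separated share, since the genes were named with this contrast known. The summed ligand level was 146, 168 and 162 RPKM in shHMGB1 and 136, 121 and 151 RPKM in shCTRL. Shares within a library sum to 100%, so they do not vary independently. In shHMGB1 replicate C, where the Vegfb share was highest, the Vegfa and Vegfc shares were the lowest of the group. The Vegfd share there was the highest of the group, at 9.09%.

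**Figure D2:**
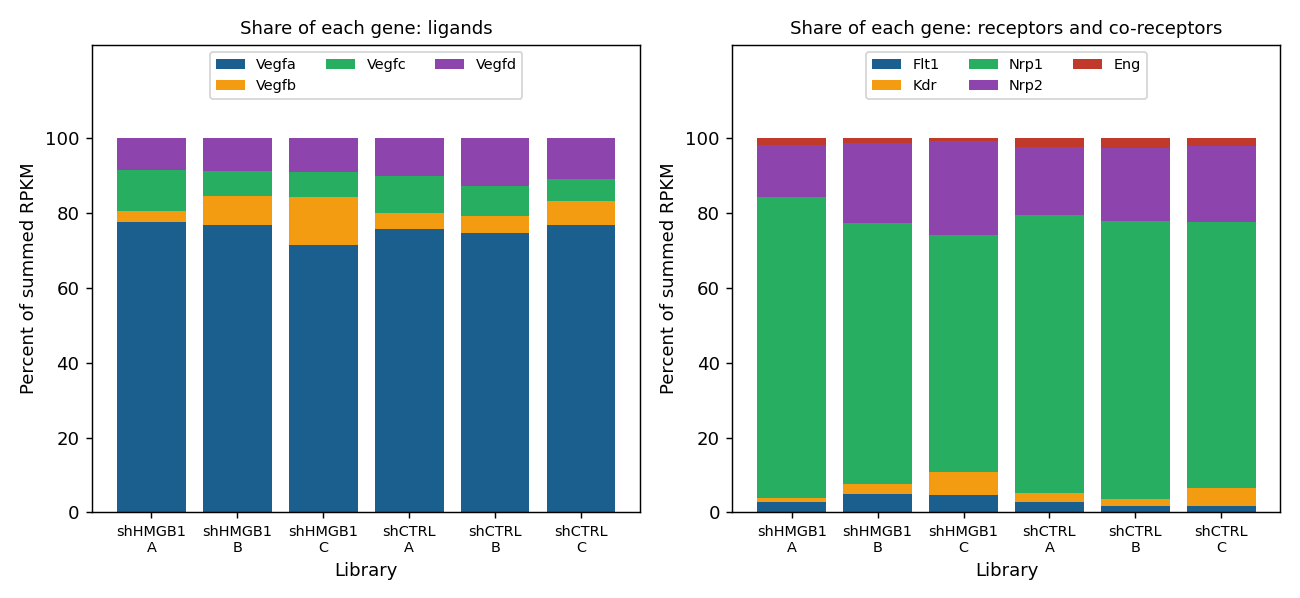
Stacked bars of the percent of summed RPKM taken by each ligand (left) and by each receptor or co-receptor (right) in each library, shHMGB1 libraries first. Vegfa takes 71.5% to 77.6% of the ligand sum and Nrp1 63.3% to 80.5% of the receptor sum in all 6 libraries.

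The kinase receptors Flt1 and Kdr were low and varied between cultures. Flt4, which also encodes a VEGF receptor kinase, was not analysed here. Flt1, on chromosome 5 from 147561604 to 147726011, measured 1.55, 2.55 and 2.85 RPKM in shHMGB1 and 1.61, 0.975 and 1.08 RPKM in shCTRL. The groups overlapped through a single pair, since shHMGB1 replicate A lay just below shCTRL replicate A. Reads numbered 331, 618 and 465 in shHMGB1 and 242, 116 and 303 in shCTRL. The means were 2.32 ± 0.68 RPKM in shHMGB1 and 1.22 ± 0.34 RPKM in shCTRL (SD, n = 3 each), with a log2 fold change of 0.85 ± 0.30 (SE; 95% interval 0.15 to 1.56), the only one of the 9 intervals that lay above 0. With 1 library left out the fold change ran from 0.69 to 1.11, and it was 0.57 with a pseudocount of 1 RPKM. Among all tested genes, 7.91% had a 95% interval that left out 0, on either side. The interval of Flt1 is not read against that share, since the genes were named with this contrast known.

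Kdr, the main signalling receptor for VEGFA, lies on chromosome 5 from 75932827 to 75978458. It measured 0.495, 1.51 and 3.60 RPKM in shHMGB1 and 1.39, 1.04 and 2.78 RPKM in shCTRL, from 57, 198 and 317 reads in shHMGB1 and 113, 67 and 420 reads in shCTRL. Replicate C was the highest in both groups, and the shHMGB1 libraries spanned the whole range of the 6. The exact 95% counting interval was 0.373 to 0.638 RPKM for shHMGB1 replicate A and 3.21 to 4.01 RPKM for shHMGB1 replicate C, so the spread between these cultures was larger than counting error. The ratio of 7.27 between the highest and lowest shHMGB1 library was at the 99.6th percentile of tested genes. On the log2 scale the fold change was -0.16 ± 0.65 (SE; 95% interval -1.65 to 1.34), while the arithmetic mean was slightly higher in shHMGB1, at 1.87 ± 1.58 RPKM against 1.74 ± 0.92 RPKM in shCTRL (SD, n = 3 each). It was 0.52 without shHMGB1 replicate A, 0.22 without shCTRL replicate C and -0.79 without shHMGB1 replicate C, so these data give no direction for Kdr. The ratio of Flt1 to Kdr within a library was 3.13, 1.69 and 0.793 in shHMGB1 and 1.16, 0.935 and 0.390 in shCTRL, with overlap and with replicate C lowest in both groups.

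Of the neuropilins, Nrp1, on chromosome 8 from 128358604 to 128503363, was the steadiest of the genes in the control cells. It measured 44.2, 37.0 and 37.9 RPKM in shHMGB1 and 42.5, 41.5 and 42.2 RPKM in shCTRL, with overlap. Its log2 fold change was -0.09 ± 0.14 (SE; 95% interval -0.42 to 0.24). Nrp2, which binds VEGFC as well as semaphorins, lies on chromosome 1 from 62703285 to 62818695. It measured 7.74, 11.4 and 15.1 RPKM in shHMGB1 and 10.4, 10.96 and 12.1 RPKM in shCTRL, so the shHMGB1 libraries again enclosed the shCTRL ones. Its log2 fold change was -0.01 ± 0.24 (SE; 95% interval -0.58 to 0.55), and it was 0.24 without shHMGB1 replicate A and -0.24 without shHMGB1 replicate C. Nrp1 made up 80.5%, 69.7% and 63.3% of the summed receptor and co-receptor RPKM in shHMGB1 and 74.3%, 74.3% and 71.1% in shCTRL. With annotated exonic bases that share was 43.2% to 63.9% in shHMGB1 and 51.9% to 55.6% in shCTRL. The ratio of Nrp1 to Nrp2 was 5.71, 3.25 and 2.51 in shHMGB1 and 4.10, 3.78 and 3.50 in shCTRL, again with shHMGB1 on both sides.

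Endoglin was the only one of the 9 genes whose groups did not overlap. Eng, on chromosome 2 from 32646595 to 32682669, measured 0.935, 0.663 and 0.436 RPKM in shHMGB1 and 1.29, 1.39 and 1.23 RPKM in shCTRL. Every shHMGB1 library was below every shCTRL library, and shHMGB1 replicate C was the lowest. The means were 0.678 ± 0.25 RPKM in shHMGB1 and 1.31 ± 0.083 RPKM in shCTRL (SD, n = 3 each), or 51.9% of the control mean. Its share of the summed receptor and co-receptor RPKM was 0.728% to 1.70% in shHMGB1 and 2.07% to 2.498% in shCTRL. Among all tested genes, 7.07% were lower in shHMGB1 without overlap, 6.9% were higher without overlap, and 14.0% were separated in either direction. The 1 in 9 seen here is not read against those shares, since the genes were named with this contrast known.

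The log2 fold change of Eng was -0.90 ± 0.29 (SE; 95% interval -1.57 to -0.23), the only interval of the 9 that lay below 0. It ran from -1.13 to -0.66 with 1 library left out and was -0.47 with a pseudocount of 1 RPKM, which weighs heavily at this level. An interval that left out 0, on either side, was found for 7.91% of all tested genes, and that of Eng is not read against this share. Reads were few, 65, 52 and 23 in shHMGB1 and 63, 54 and 112 in shCTRL, and Eng ranked 10982 of the listed genes. Exact 95% counting intervals were 0.719 to 1.19, 0.492 to 0.864 and 0.274 to 0.649 RPKM in shHMGB1 replicates A, B and C and 0.989 to 1.65, 1.04 to 1.81 and 1.010 to 1.48 RPKM in shCTRL replicates A, B and C. Thus shHMGB1 replicate A overlapped all 3 shCTRL libraries within counting error, and replicates B and C did not. The annotated exons of Eng share 61 bases with Fpgs on the opposite strand, and neither labels nor headers say whether reads were counted by strand. Fpgs measured 8.83, 12.7 and 8.48 RPKM in shHMGB1 and 12.6, 6.76 and 12.1 RPKM in shCTRL, in another order than Eng. Cd34, a sialomucin of endothelial cells and of some mesenchymal cells, was also lower without overlap, at 76.5, 48.6 and 47.0 RPKM in shHMGB1 and 98.7, 152 and 142 RPKM in shCTRL, while Ecscr overlapped, at 2.47 to 4.69 RPKM and 2.51 to 4.43 RPKM. The part of other cell types in the Eng values was not tested, and in bulk RNA fewer cells of a type and less RNA per cell cannot be told apart.

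**Figure D3:**
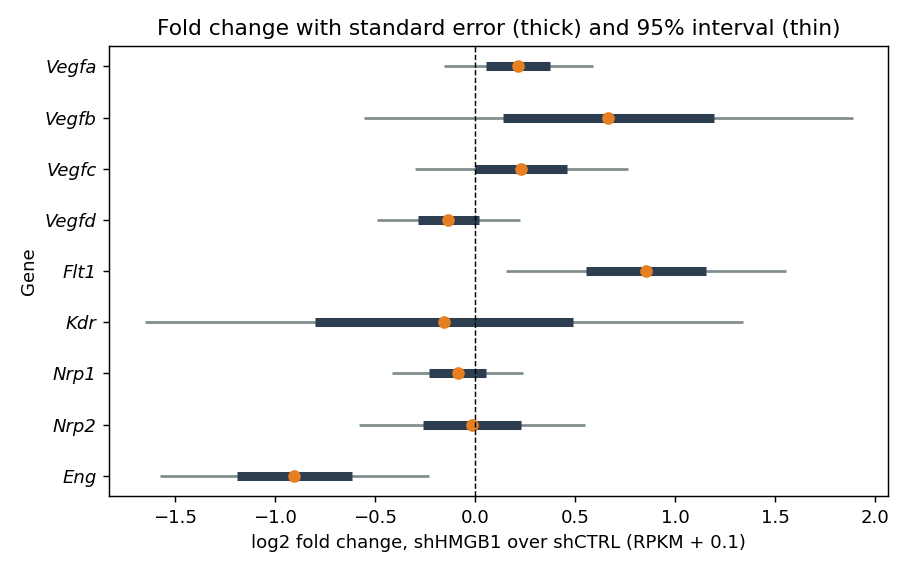
Log2 fold change of shHMGB1 over shCTRL on log2(RPKM + 0.1) for each gene (point), with limma's standard error (thick bar) and 95% interval (thin bar). The intervals of Eng (-1.57 to -0.23) and Flt1 (0.15 to 1.56) lie to one side of 0 and the other 7 cross it. Of all tested genes, 7.91% have an interval to one side of 0, and the genes shown were named with this contrast known.

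Several of the genes followed the same libraries. In shHMGB1, replicate C was highest and replicate A lowest for Vegfb, Vegfd, Flt1, Kdr and Nrp2, 5 of the 9 genes, a pattern that 30.2% of all tested genes shared. The 18S ribosomal RNA row Rn18s-rs5 ran the other way in shHMGB1, at 9004, 2567 and 623 RPKM, and measured 22963, 62830 and 2177 RPKM in shCTRL. In shCTRL, replicate B had the most of this row and the lowest Vegfb, Kdr and Flt1, and replicate C had the least and the highest Vegfb, Vegfd, Kdr and Nrp2. The same 5 genes did not all follow the row there. Vegfd and Nrp2 were lowest in shCTRL replicate A, at 13.7 and 10.4 RPKM, and Flt1 was highest in shCTRL replicate A, at 1.61 RPKM. Eng stood in the same order as the 18S row within both groups, A above B above C in shHMGB1 and B above A above C in shCTRL, where its range of 1.23 to 1.39 RPKM was narrow. The summed level of 19 mitotic genes was 36.5, 84.2 and 36.0 RPKM in shHMGB1 and 25.1, 37.0 and 24.0 RPKM in shCTRL. It was highest in shHMGB1 replicate B, where Vegfa was also highest. Within shCTRL it was highest in replicate B, where Vegfa was the lowest of all libraries, at 90.4 RPKM. All 19 mitotic genes had log2 fold changes above 0, and 0 were called. The part of residual ribosomal RNA and of cycling cells in these values, those of Eng included, was not tested.

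**Figure D4:**
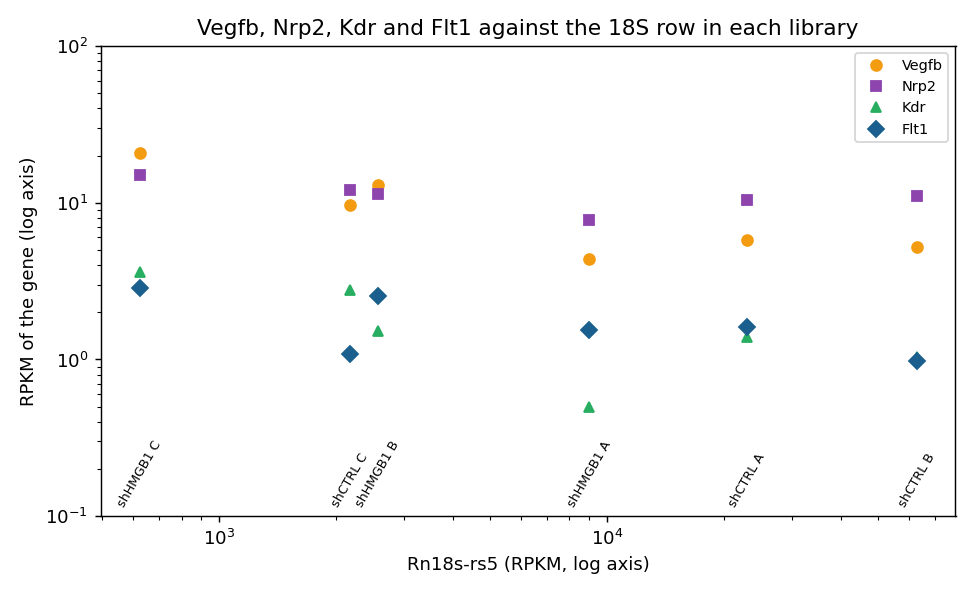
RPKM of Vegfb, Nrp2, Kdr and Flt1 against RPKM of the 18S ribosomal row in each of the 6 libraries, both on log axes, with the libraries named at the bottom. Vegfb, Nrp2, Kdr and Flt1 are all highest in shHMGB1 replicate C, the library with the lowest 18S row, 623 RPKM.

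Genes with the library pattern most like Vegfa and Eng were sought among the 11669 tested genes by Pearson's r of log2(RPKM + 0.1) over the 6 libraries. Nearest to Vegfa were Commd4, Scly, Ehd1, Htatip2 and Prrg2, with r from 0.983 to 0.994, and nearest to Eng were Pde4b, Gm16062, Ifi211, Ahsa1 and Tmem140, with r from 0.994 to 0.999. These are the highest of 11669 correlations, each over only 6 points that share depth and library preparation, and are given as a description. Pde4b, a cyclic AMP phosphodiesterase gene, measured 6.21, 5.12 and 3.76 RPKM in shHMGB1 and 8.08, 8.47 and 7.61 RPKM in shCTRL. Ehd1, an endocytic recycling gene, measured 59.2, 82.0 and 67.2 RPKM in shHMGB1 and 52.7, 36.6 and 60.3 RPKM in shCTRL.

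The genes around the VEGF system were then described by list. Upstream of Vegfa, 13 hypoxia-inducible factors, oxygen sensors and regulators of its messenger RNA were tested and 0 were called, with 11 values above 0 and 2 below, and a median log2 fold change of 0.21, which was 0.46 without shHMGB1 replicate A 0.33 without shCTRL replicate C, 0.07 without shCTRL replicate B and 0.04 without shHMGB1 replicate C. Hif1a, the oxygen-regulated factor that drives Vegfa, measured 149 ± 21.9 RPKM in shHMGB1 and 168 ± 27.2 RPKM in shCTRL (SD, n = 3 each; adjusted p = 0.793, limma). Epas1, which encodes HIF-2 alpha, was near the floor at 0.301, 0.378 and 2.05 RPKM in shHMGB1 and 0.470, 0.366 and 0.297 RPKM in shCTRL, chosen after its values were seen. Hnrnpl, an RNA-binding protein that can stabilise Vegfa messenger RNA in human cells, and Arnt2, a partner of the hypoxia factors, gave log2 differences of 0.24 and 0.45 (adjusted p = 0.785 and 0.694, limma). Of 20 hypoxia targets 0 were called, with 11 above and 9 below 0 and a median of 0.06, which has no stable sign, since it was 0.12 without shHMGB1 replicate A, 0.11 without shCTRL replicate C, 0.02 without shCTRL replicate B and below 0 without shHMGB1 replicate C (-0.07), shHMGB1 replicate B (-0.05) or shCTRL replicate A (-0.01). The glycolytic genes Ldha and Pgk1 gave log2 differences of -0.20 and -0.32 (adjusted p = 0.767 and 0.706, limma). Bnip3, a mitophagy receptor gene, measured 149 ± 13.3 RPKM in shHMGB1 and 202 ± 22.3 RPKM in shCTRL, without overlap (SD, n = 3 each; adjusted p = 0.584, limma).

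Downstream, 44 genes of the VEGF signal relay were tested and 0 were called, with 34 above and 10 below 0 and a median log2 fold change of 0.23. This median was 0.09 without shHMGB1 replicate C and 0.15 without shCTRL replicate B. The small GTPase gene Cdc42 and the MAP kinase kinase gene Map2k1, the most abundant of them, gave log2 differences of -0.21 and 0.16 (adjusted p = 0.769 and 0.779, limma). The Src-family kinase gene Fyn had the smallest p, with 15.5 ± 2.09 RPKM in shHMGB1 and 10.3 ± 1.42 RPKM in shCTRL (SD, n = 3 each; adjusted p = 0.475, limma). Groups did not overlap for 8 of the 44, all higher in shHMGB1, where 6.9% of all tested genes were higher without overlap and 7.07% lower. The counts higher and lower without overlap were 0 and 0 of 13 hypoxia factors, 0 and 2 of 20 hypoxia targets, 1 and 3 of 23 genes around endoglin, 2 and 0 of 9 semaphorin-related genes, 1 and 0 of 16 processing genes, 2 and 0 of 18 other angiogenic genes, and 5 and 0 of 16 inhibitors. Semaphorins, plexins and their partners numbered 9 tested and 0 called, with a median of 0.12, which was 0.29 without shHMGB1 replicate A and 0.23 without shCTRL replicate C. Sema3a, a neuropilin ligand, measured 26.3 ± 7.03 RPKM in shHMGB1 and 35.0 ± 7.62 RPKM in shCTRL, and Gipc1, a neuropilin adaptor gene, 37.2 ± 5.61 RPKM in shHMGB1 and 34.1 ± 4.57 RPKM in shCTRL (SD, n = 3 each; adjusted p = 0.706 and 0.817, limma). L1cam, a neuronal adhesion gene, gave a log2 difference of 0.86 without overlap (adjusted p = 0.528, limma).

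Around endoglin, 23 receptors, ligands, SMADs and BMP targets were tested and 0 were called, with 8 above and 15 below 0 and a median of -0.04, which was -0.15 without shHMGB1 replicate C, -0.13 without shCTRL replicate B, -0.09 without shCTRL replicate A and -0.00 without shHMGB1 replicate B. Acvrl1, the receptor that pairs with endoglin in endothelium, was not analysed here. Id2, a BMP target that blocks basic helix-loop-helix factors, had the smallest p of this list and was lower without overlap, at 24.3, 27.9 and 28.3 RPKM in shHMGB1 and 41.8, 43.2 and 49.6 RPKM in shCTRL. Its log2 fold change was -0.74 ± 0.15 (SE; adjusted p = 0.267, limma). Id3, the most abundant of the list, and the receptor gene Tgfbr2 gave log2 differences of -0.15 and -0.29 (adjusted p = 0.788 and 0.719, limma). The ligand genes Tgfb1 and Tgfb2, chosen after their values were seen, gave log2 differences of 0.85 and 0.87 (adjusted p = 0.727 and 0.526, limma). Tgfb3, a ligand gene of the same list, went the other way, with a log2 difference of -0.34 (adjusted p = 0.695, limma). It measured 9.44, 9.95 and 10.8 RPKM in shHMGB1 and 10.7, 12.2 and 15.8 RPKM in shCTRL. Tgfb1 was far highest in shHMGB1 replicate C, at 1.42, 2.86 and 8.46 RPKM in shHMGB1 and 1.85, 1.49 and 2.04 RPKM in shCTRL.

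For ligand processing and release from the matrix, 16 genes were tested and 0 were called, with 12 above and 4 below 0 and a median of 0.27. This median was 0.09 without shHMGB1 replicate C and 0.17 without shCTRL replicate B. The syndecan genes Sdc4 and Sdc2 gave log2 differences of -0.11 and 0.11 (adjusted p = 0.864 and 0.831, limma), and the matrix protease gene Mmp2 measured 35.2 ± 8.78 RPKM in shHMGB1 and 22.4 ± 3.67 RPKM in shCTRL (SD, n = 3 each; adjusted p = 0.558, limma). Furin and Ccbe1, which act in the maturation of VEGFC, were chosen after their values were seen. Furin measured 2.65, 11.2 and 21.1 RPKM in shHMGB1 and 7.35, 3.11 and 8.76 RPKM in shCTRL, and Ccbe1 measured 2.21, 4.23 and 7.71 RPKM in shHMGB1 and 2.92, 2.04 and 2.72 RPKM in shCTRL. Both had shHMGB1 replicate C highest and replicate A lowest, as Vegfb and Kdr did, a pattern that 30.2% of all tested genes shared.

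Other angiogenic factors and receptors gave 18 tested and 0 called, with 13 above and 5 below 0 and a median of 0.37, which was 0.20 without shHMGB1 replicate C and 0.22 without shCTRL replicate B. The pericyte and fibroblast receptor gene Pdgfrb gave a log2 difference of 0.22 (adjusted p = 0.797, limma). The chemokine gene Cxcl12 measured 42.0 ± 9.33 RPKM in shHMGB1 and 24.1 ± 6.59 RPKM in shCTRL, and the Notch ligand gene Jag1 25.8 ± 4.28 RPKM in shHMGB1 and 16.2 ± 2.30 RPKM in shCTRL (SD, n = 3 each; adjusted p = 0.507 and 0.452, limma), both without overlap. Inhibitors of angiogenesis gave 16 tested and 0 called, with 12 above and 4 below 0 and a median of 0.21, which was 0.10 without shHMGB1 replicate C and 0.37 without shHMGB1 replicate A. Thbs1 and Thbs2, which encode the anti-angiogenic thrombospondins, were far above Vegfa. Thbs1 measured 1304, 1809 and 1962 RPKM in shHMGB1 and 1260, 1202 and 1198 RPKM in shCTRL (adjusted p = 0.663, limma), and Thbs2 averaged 709 ± 126 RPKM in shHMGB1 and 828 ± 238 RPKM in shCTRL (SD, n = 3 each; adjusted p = 0.806, limma). Col18a1, the source of endostatin, had the smallest p, at 8.51 ± 0.46 RPKM in shHMGB1 and 5.29 ± 0.80 RPKM in shCTRL (SD, n = 3 each; adjusted p = 0.389, limma).

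**Figure D5:**
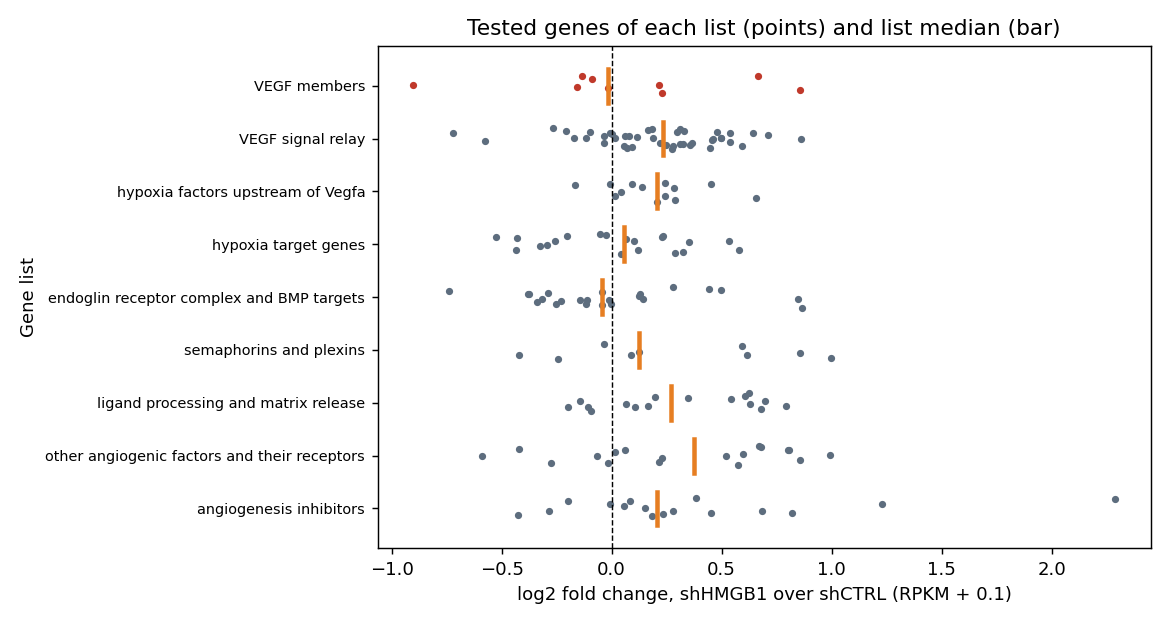
Log2 fold change of shHMGB1 over shCTRL for the 9 VEGF genes (red) and for the tested genes of 8 lists (grey), with an orange bar at each median. The VEGF genes have a median of -0.01 and the lists have medians from -0.04 to 0.37, while the median of all tested genes is 0.01.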

How the data were processed

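The labels list 6 RNA-seq libraries, 3 shHMGB1 and 3 shCTRL. Per the submitters' processing notes, Trimmomatic 0.32, STAR 2.5.3a, featureCounts and edgeR were used with the builds mm10 and GRCm38. No source used here gives the gene model, the strand setting or the rule by which genes were kept. The deposited values are log2 RPKM, 1 per gene and library, from -9.20 to 17.7, and were raised as powers of 2 before use.

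Reads were recovered from the steps between values, taking 0.25 reads, scaled to library size, as added to each. Whole reads within 0.02 in all 6 libraries were found for 12132 of 12134 genes, and with wrong library sizes for 0 of 500. On simulated reads 99.5% of 200 genes were returned. The library sizes behind the values were 0.845 to 1.09 times the reads listed, so they carry a between-library normalization. Gene lengths so found differ from GENCODE M21 for some genes (3523 against 4285 bases for Vegfa, 3597 against 9785 bases for Nrp1). Counting intervals are exact Poisson intervals and cover counting error only.

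Group was the sole term of the model, fitted to log2(RPKM + 0.1) by limma 3.58.1 (R 4.3.3; eBayes with trend and robust) over 11669 genes, leaving out 465. Fold changes on this scale understate those of low genes. In simulated reads of this comparison over 11627 genes, 100% of 99 genes changed by a log2 fold of 2 were called, as were 6 unchanged genes. That share does not carry over to these libraries, where Ctgf, at a log2 fold change of 2.29, was not called. With 3 against 3 an exact permutation test cannot give a p under 0.1. The alternatives were other pseudocounts, filters, scalings and variance models, the replicate letter as a block, voom on recovered reads and leaving out each library. Genes named beside the members are, per list, the 2 with the highest mean and the 1 with the smallest p. The members and lists were chosen with earlier results of these data known. Gene positions are from GENCODE M21 on GRCm38.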

Additional observations from a re-analysis of the deposited data

How the results depend on the processing

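The number of genes called over the whole table was 3, and it moved to 0 above a floor of 5 RPKM or with a minimum log2 fold of 1, to 5 with libraries rescaled to equal sums or equal medians, to 21 with array quality weights, and to 7 with the replicate letter as a block. With 1 library left out it ran from 0 to 8 (8 without shHMGB1 replicate A), and 0 VEGF genes were called under any of the 19 alternatives. The labels do not say whether replicate letters pair the cultures. Deviations of same-lettered libraries from their group means correlated at 0.15, -0.10 and 0.48, and those of differently lettered libraries at -0.65 to 0.54. With 3 libraries in each group these correlations cannot settle the pairing. The block called 7 genes and 0 of the 9, and 1254 genes had an unadjusted p under 0.05 (limma) with it, against 923 in the reported fit. Rescaling to equal sums moved the median log2 fold change of all genes from 0.01 to 0.36 and gave 0.57 for Vegfa, 0.59 for Vegfc, 0.22 for Vegfd, 0.27 for Nrp1 and 0.34 for Nrp2. Relative to that median, Vegfa stood at 0.21, Vegfd at -0.14, Nrp1 at -0.09, Nrp2 at -0.02, Kdr at -0.19 and Eng at -0.95, on the same side as in the reported fit. Eng was -0.47 with a pseudocount of 1. Of 150 alternative values of the members, 6 moved by more than 1 SD. The sign of Kdr changed in 3 alternatives and that of Nrp2 in 4, while Vegfa, Vegfb, Vegfc, Flt1 and Eng kept theirs in all that were run. Of 152 list medians 9 moved by more than the list's median standard error, 8 of them under equal sums and the other for the hypoxia factors without shHMGB1 replicate A (0.46). Depth limits Eng and Kdr most, with 23 and 57 reads in their lowest libraries. The causes of these changes were not tested.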
